A study of Mus musculus with 3 samples.

Results

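The 6 genes of the Gata family, Gata1 to Gata6, were examined in ATAC-seq, which maps accessible chromatin with a transposase that cuts and tags exposed DNA. The members were the broad peaks that overlapped the body of a Gata gene or the 50 kb on either side of it. They numbered 78 of 129843 peaks in SOX2-ON, 83 of 131520 in SOX2-OFF and 82 of 130348 in CEpiLC. Merged across the 3 samples wherever peaks touched or overlapped, they formed 124 of 219473 regions.

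All samples were mouse embryonic stem cells of the HM1 line, strain 129, grown on feeder fibroblasts with LIF at 1000 U/ml and then differentiated for 72 h. They received bFGF at 10 ng/ml and LGK974, an inhibitor of WNT secretion, at 5 µM, and after 2 days also CHIR99021, which inhibits GSK3 and so activates WNT signalling. The CEpiLC sample, named for caudal epiblast-like cells, was wild type. SOX2-ON and SOX2-OFF came from a single clone, the SOX2-TetON line. In it, endogenous Sox2 was ablated by gene editing and a doxycycline-inducible Sox2 transgene sat at Hprt. The line also made rtTA, the protein through which doxycycline acts, from Rosa26. In the paper every line descended from HM1 TetON cells, and these cells were the wild-type control. So rtTA was not particular to the SOX2-TetON line. Doxycycline at 1 µg/ml was kept in SOX2-ON and withdrawn from SOX2-OFF. Each group held 1 sample of 50000 cells, so no value has a replicate error and no difference was tested. Clone, library and treatment cannot be told apart where SOX2-ON or SOX2-OFF is set against CEpiLC, nor library and doxycycline between SOX2-ON and SOX2-OFF.

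GATA factors are zinc-finger transcription factors that bind DNA at sites with the core letters GATA, and each acts with partner proteins such as the FOG proteins encoded by Zfpm1 and Zfpm2. Gata1, Gata2 and Gata3 are known for blood lineages: Gata1 for red cells and megakaryocytes, Gata2 for stem cells and endothelium, Gata3 for T cells and also for trophoblast. Gata4, Gata5 and Gata6 are known for the heart and the endoderm, and Gata6 is an early determinant of primitive endoderm, the extraembryonic sister of the epiblast. GATA factors often bind their own genes, and introns and distal elements of the loci carry clustered sites.

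Strength was compared by rank. Peaks of each list were ordered by −log10 p, with rank 1 the strongest, and the rank was turned into a percentile with 100 the strongest. The strongest 20000 peaks of a list are called strong, and a strong peak was called missing from another list when under 10% of its length was covered there. Fold enrichment is the read pileup over the caller's local background. It was not compared between lists, since it depends on depth.

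The sequences below are the central 200 bp of strong peaks of Gata1, Gata3 and Gata4 that lay away from starts and were missing from, or at least 25 percentile points lower in, another list, with a Gata4 intronic peak that was strong in all 3 lists for comparison. They are given because the samples differed there. The 2 peaks of Gata6 that meet the same rule are described with that gene and not printed, and their central 200 bp held 1 and 0 GATA matches. Capitals mark exact matches, on either strand, to a GATA motif (AGATAA or AGATAG or TGATAA or TGATAG). They were read on the plus strand of GRCm38, which is mm10.
Gata1 intron peak of SOX2-ON, missing from both other lists, chrX:7966249-7966448: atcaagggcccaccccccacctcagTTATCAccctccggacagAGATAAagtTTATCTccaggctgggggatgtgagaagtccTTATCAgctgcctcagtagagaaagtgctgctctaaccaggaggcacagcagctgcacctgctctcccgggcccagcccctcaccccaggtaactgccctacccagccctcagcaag
Gata4 intron peak of SOX2-ON, missing from CEpiLC, chr14:63231301-63231500: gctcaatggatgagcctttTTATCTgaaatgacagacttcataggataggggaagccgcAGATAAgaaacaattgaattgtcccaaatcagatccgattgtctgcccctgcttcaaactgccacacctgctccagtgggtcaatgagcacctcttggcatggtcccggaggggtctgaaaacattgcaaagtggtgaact
Gata4 intron peak of SOX2-ON, weaker in both other lists, chr14:63264884-63265083: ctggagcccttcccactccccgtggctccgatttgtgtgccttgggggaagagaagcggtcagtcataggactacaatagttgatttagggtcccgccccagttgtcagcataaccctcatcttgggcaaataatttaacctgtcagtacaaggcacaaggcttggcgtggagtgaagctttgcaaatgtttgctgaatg
Gata4 intron peak strong in all 3 lists, chr14:63256005-63256204: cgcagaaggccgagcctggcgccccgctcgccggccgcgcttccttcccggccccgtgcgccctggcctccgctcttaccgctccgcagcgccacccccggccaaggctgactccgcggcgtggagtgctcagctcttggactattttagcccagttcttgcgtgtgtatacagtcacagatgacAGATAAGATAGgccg
Peak of CEpiLC in the Gata3 window, missing from both other lists and shown over its whole 170 bp, chr2:9936053-9936222: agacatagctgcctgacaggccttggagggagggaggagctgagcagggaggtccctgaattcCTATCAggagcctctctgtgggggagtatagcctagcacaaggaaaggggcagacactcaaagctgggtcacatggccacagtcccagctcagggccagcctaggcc

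The Gata1 intronic stretch held 4 GATA matches, at positions 26, 44, 53 and 84 of the run. Of all SOX2-ON peaks, 0.335% held 4 or more in their central 200 bp, and 2 of these lay in the Gata windows. Among the Gata4 stretches, that of the peak missing from CEpiLC held 2 matches, that of the peak shared by all samples held 2 that overlap each other, and that of the peak weaker in both other lists held none. Over their whole lengths in SOX2-ON these 3 peaks held 6, 4 and 4, and the Gata1 peak held 4. The 2 Gata6 peaks that are not printed held 4 and 5 over theirs. Whole-length counts were not made over all peaks, so they have no share beside them. The Gata3 window peak of CEpiLC held 1. A match is a string of letters and not a measured binding site.

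Base composition at the starts is given because Gata1 was the member without a start peak. The 250 bases before the RefSeq start of Gata1 and of Gata5 are shown on the minus strand, which is that of each gene, 5′ to 3′. They come from the RefSeq promoter table of the same build, which held 4 of the 6 members. The RefSeq start of Gata5 lay 20 bp from the GENCODE start, so the last 20 bases of its run fall inside the GENCODE gene body. Capitals mark CG.
Gata1, chrX:7967911-7968160: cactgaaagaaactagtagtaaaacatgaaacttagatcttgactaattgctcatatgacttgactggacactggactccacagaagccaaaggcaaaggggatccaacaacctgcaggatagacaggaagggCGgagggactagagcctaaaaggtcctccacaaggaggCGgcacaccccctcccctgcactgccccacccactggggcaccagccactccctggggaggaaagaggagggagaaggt
Gata5, chr2:180334680-180334929: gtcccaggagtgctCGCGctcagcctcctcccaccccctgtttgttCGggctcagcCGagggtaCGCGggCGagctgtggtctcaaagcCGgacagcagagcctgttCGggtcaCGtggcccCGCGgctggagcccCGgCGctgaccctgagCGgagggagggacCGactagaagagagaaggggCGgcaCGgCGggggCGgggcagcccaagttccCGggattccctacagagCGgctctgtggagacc

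The Gata1 run held 2 CG pairs and the Gata5 run 22. Over 500 bp centred on the start, the ratio of observed to expected CG was 0.223 at Gata1-201, and the other Gata1 starts had 0.165 and 0.41. It was 0.663 at Gata5-201, 0.645 at Gata3-201, 0.517 at the Gata2 start with the strongest peak, 0.8 at Gata4-201 and 0.655 at Gata6-201. Minor starts of Gata2, Gata3 and Gata4 also had low ratios, down to 0.133 at a start inside Gata3. Among starts of coding genes, the median ratio was 0.75 for 55654 with a peak within 1 kb in all 3 lists and 0.209 for 25892 with none in any list.

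The lists as a whole differed in ways that touch these loci. In the order SOX2-ON, SOX2-OFF and CEpiLC, which holds for every set of 3 values here, the peak at rank 20000 had a −log10 p of 26.4, 21.2 and 10.6, and median peak width was 621, 741 and 526 bp. Read totals were not used, so depth is unknown, and differences in calling between the lists were not separated from differences between the cells. Chromosome 6, which carries Gata2, held 3.12 times the peak density of the median autosome outside 6, 8 and 11 in SOX2-ON, with 3.29 times in SOX2-OFF and 0.93 times in CEpiLC. Chromosome X, which carries Gata1, held 0.248, 0.204 and 0.134 times, and the line has a single X.

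Of the 124 regions, 43 were in all 3 lists (34.7%, 95% Wilson interval 26.9% to 43.4%, counting error only), against 27% of all regions. SOX2-ON and SOX2-OFF alone shared 15, SOX2-OFF and CEpiLC 11, and SOX2-ON and CEpiLC 3. Regions found only in SOX2-ON were 15 of its 76, or 19.7%, where 29.2% of all SOX2-ON regions were found in no other list. For SOX2-OFF they were 13 of 82, or 15.9%, beside 25.4%, and for CEpiLC 24 of 81, or 29.6%, beside 35.3%. By gene, Gata3 had no region found only in SOX2-ON among 13, where 28.4% of SOX2-ON regions on chromosome 2 were, and 8 of 21 CEpiLC regions found only there, where 33.3% of CEpiLC regions on that chromosome were. Gata1 had 3 of 13 found only in SOX2-ON and none found only in CEpiLC. With peaks limited to a −log10 q of at least 5, the windows held 36, 36 and 23 peaks. The single-list regions were then 9 for SOX2-ON, 7 for SOX2-OFF and 1 for CEpiLC, so CEpiLC went from the most to the fewest. The share of all regions was not computed at that limit. On chromosome X as a whole, 28.9% of regions were found only in SOX2-ON and 3.25% only in CEpiLC.

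**Figure D1:**
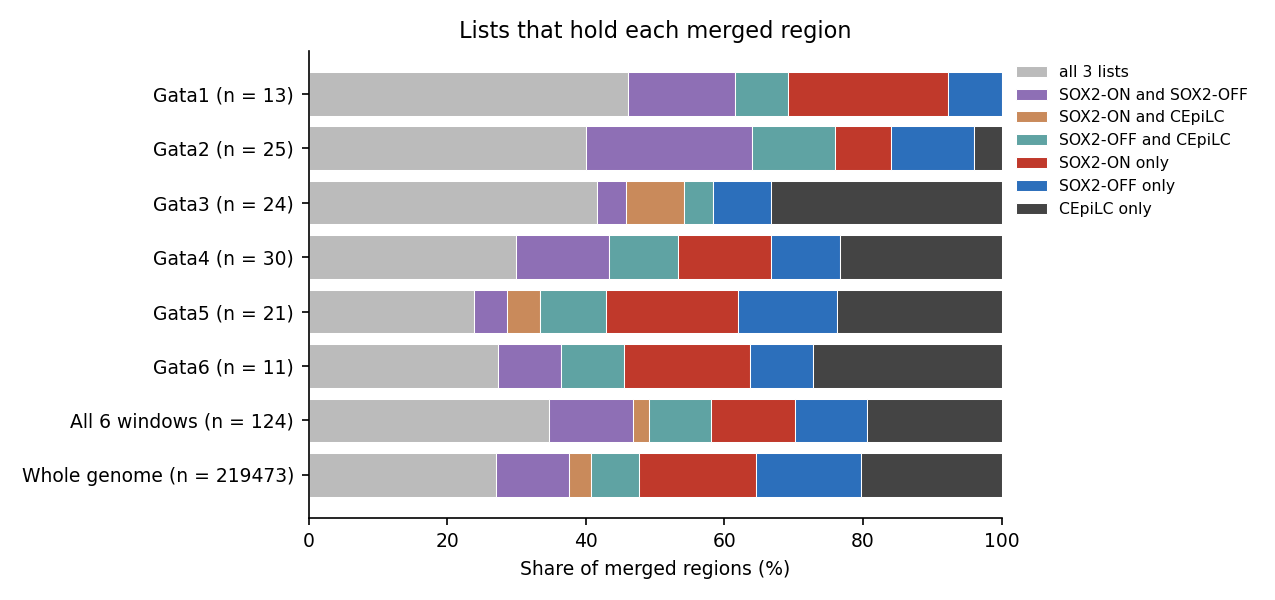
Share of merged regions (horizontal axis, %) by the lists that held them, for each Gata window, for the 6 windows together and for the whole genome, with the number of regions beside each bar. Regions in all 3 lists made up 34.7% of the Gata windows and 27% of the genome, and Gata3 shows no segment for SOX2-ON alone.

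Strong peaks away from starts differed in number. SOX2-ON had 22 strong peaks in the windows, SOX2-OFF 18 and CEpiLC 18, and of these 10, 4 and 5 lay more than 1 kb from any annotated start. Over the whole lists, 6449, 5801 and 5920 strong peaks lay that far from a start.

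Of the 22 strong SOX2-ON peaks, 3 were missing from SOX2-OFF, or 13.6%, where 5.04% of all strong SOX2-ON peaks were missing. From CEpiLC 4 were missing, or 18.2%, beside 8.58%. All lay away from starts, at Gata6 (2 peaks), Gata1 and, for CEpiLC, Gata4. None of the 18 strong SOX2-OFF peaks was missing from SOX2-ON, where the share of all was 1.3%, or from CEpiLC, where it was 1.06%. Of the 18 strong CEpiLC peaks, 1 was missing from SOX2-ON, beside 1.42% of all, and the same peak, in the Gata3 window, was missing from SOX2-OFF, beside 0.62%. The counts depend on the limit. Among the strongest 50000 peaks, 4 of SOX2-ON were missing from SOX2-OFF and 5 of SOX2-OFF from SOX2-ON. Among the strongest 5000 none was missing in either direction. Shares over the whole lists were not computed at these limits, so these counts have none beside them. No replicate shows how often a peak is lost between libraries of the same cells.

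**Figure D2:**
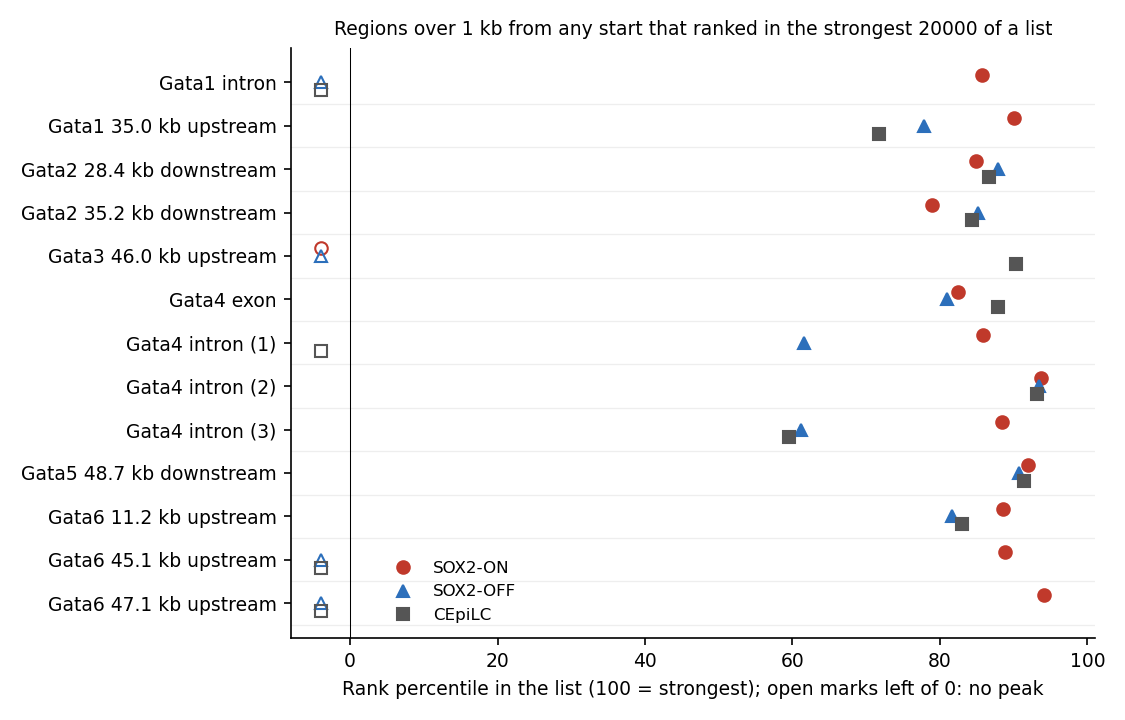
Rank percentile within each list (horizontal axis, 100 the strongest) of the 13 merged regions that lay over 1 kb from any start and ranked among the strongest 20000 of at least 1 list, named by gene and place. Open marks left of 0 stand for no peak, and they show SOX2-ON alone at the Gata1 intron and at 45.1 and 47.1 kb upstream of Gata6.

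Shared regions shifted little as a group. SOX2-ON and SOX2-OFF shared 58, in which the median percentile of SOX2-ON minus SOX2-OFF was -1.8 points, beside -1.6 over all regions. The percentile was at least 25 points higher in SOX2-ON at 2 of the 58, beside 7.41% of all shared regions, and in SOX2-OFF at 5, beside 10.7%. Against CEpiLC, with 46 shared regions, SOX2-ON was higher by that much at 3, beside 8.88%, and CEpiLC at 2, beside 12.3%. In the 54 regions shared by SOX2-OFF and CEpiLC, SOX2-OFF was higher at 6, beside 9.04%, and CEpiLC at 3, beside 7.98%. The 3 comparisons share samples.

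Peak length, summed within a region, was compared over the same regions. Peaks in SOX2-ON were at least 2 times as long as in SOX2-OFF at 3 of 58 regions, beside 6.57% of all, and the reverse held at 9, beside 16.4%. SOX2-ON was that much longer than CEpiLC at 4 of 46, beside 14.7%, and CEpiLC than SOX2-ON at 8, or 17.4%, beside 9.3%, with 4 of these 8 in the Gata3 window. SOX2-OFF was longer than CEpiLC at 8 of 54, beside 19.7%, and CEpiLC than SOX2-OFF at 3, beside 5.12%.

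Start peaks, the strongest peak within 1 kb of a start of the gene, were found for Gata2 to Gata6 in every list and for Gata1 in none. Among 21938 coding genes, 74.9% had a start peak in SOX2-ON against 75.8% in SOX2-OFF and 76.3% in CEpiLC. The 5 members with a start peak lay between percentiles 87.1 and 93.7 for SOX2-ON, 86.4 and 92.7 for SOX2-OFF, and 85.3 and 92.1 for CEpiLC. All were below the median of coding genes with a start peak, which was 93.8, 93.8 and 93.4.

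**Figure D3:**
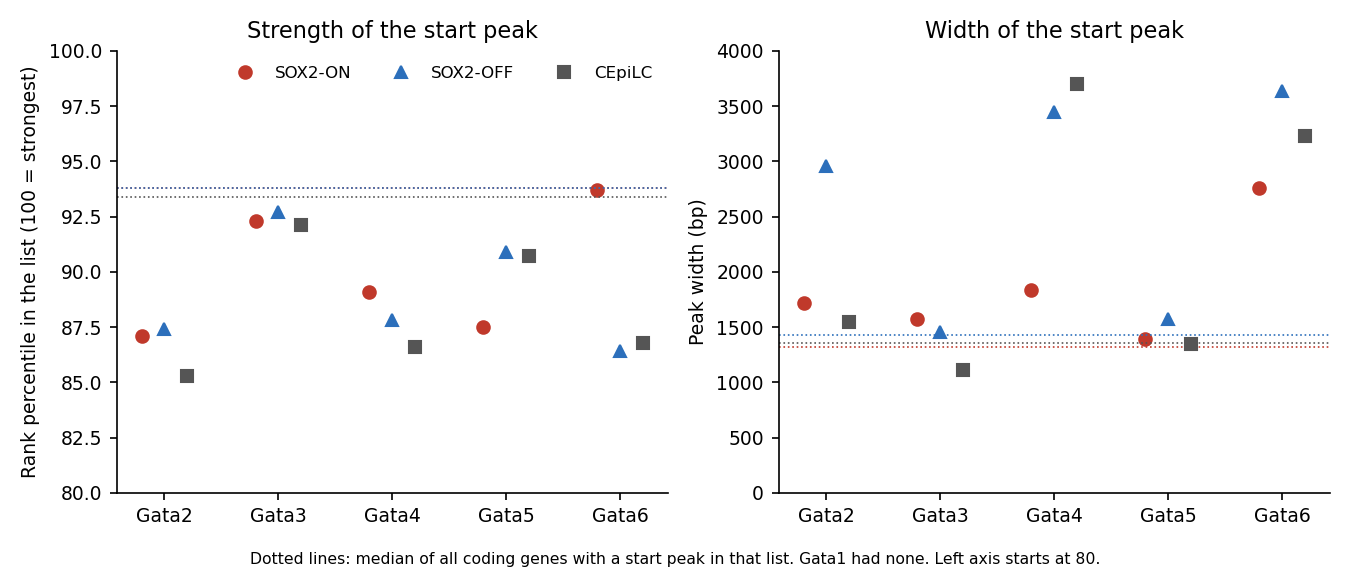
Rank percentile (left, axis from 80 to 100) and width in bp (right, axis from 0) of the start peak of Gata2 to Gata6, 1 mark for each sample, with dotted lines at the median of coding genes in each list. Gata6 was at 93.7 in SOX2-ON and at 86.4 and 86.8 in the other samples, and the Gata4 peak was narrower in SOX2-ON than in the others.

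Gata1 lies on the minus strand at chrX:7959260-7978071. No peak came within 1 kb of its 3 annotated starts, and the nearest was 1292 bp away in SOX2-ON, with 14779 bp in SOX2-OFF and 15364 bp in CEpiLC. The SOX2-ON peak was the intronic peak with 4 GATA matches printed above, at chrX:7966079-7966618. It was 540 bp wide and ranked 18528, with a fold enrichment of 3.21 and a −log10 p of 30. Neither other list held a peak anywhere in the Gata1 body.

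A region 35 kb upstream of Gata1, within the body of Glod5, at chrX:8013118-8014050, was called in all lists, at rank 12973 in SOX2-ON against 29192 in SOX2-OFF and 36902 in CEpiLC. Its percentiles were 90, 77.8 and 71.7, so SOX2-ON again stood highest. The strongest peaks of the window lay at the start of the neighbour Hdac6, a deacetylase gene, at rank 3244, 3783 and 7801, and these were in all 3 lists. Eras, a gene for a RAS protein of embryonic stem cells, and Pcsk1n also had start peaks, the latter in SOX2-ON and SOX2-OFF only.

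Gata2 lies on the plus strand at chr6:88193891-88207032. Its start peak, at position 88198334, ranked 16737 in SOX2-ON, with 16617 in SOX2-OFF and 19134 in CEpiLC, and was 1722, 2956 and 1547 bp wide. The ranks were close, while the width in SOX2-OFF was 1.91 times that in CEpiLC, a ratio higher than that of 94.7% of the 15748 coding genes with a start peak in all lists. With lengths summed over the merged region the ratio was 1.45, and the median over shared regions of chromosome 6 was 1.68, beside 1.14 over the genome. The upstream start, at 88193891, carried weaker peaks, at percentiles 46.1, 66.7 and 65.6.

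The Gata2 window held 20, 22 and 15 peaks, and 6 of its 25 regions were shared by SOX2-ON and SOX2-OFF alone. All 6 lay upstream of the gene, at percentiles of at most 51.2. On chromosome 6 as a whole 27.8% of regions had this pattern, against 10.5% of the genome. The engineered line had more peaks than CEpiLC on chromosome 6 as a whole, and the part of that excess in the Gata2 counts was not tested. Without Gata2, 9 of 99 regions were shared by these lists alone. The strongest peak away from starts lay 28.4 kb downstream of Gata2 in every list, at percentiles 84.9, 87.9 and 86.7, and the next 35.2 kb downstream, at 78.9, 85.1 and 84.3. A weaker region 2.63 kb downstream was highest in SOX2-ON, at 73.8, 57.3 and 35.3. Of the neighbours with start peaks, Gm38708 was at 95.6, 91.7 and 87.2 and 1700031F10Rik at 87.8, 91.5 and 87.6.

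Gata3 lies on the minus strand at chr2:9857078-9890034 and has 2 groups of starts with strong peaks. At Gata3-201, the peak ranked 9949 in SOX2-ON against 9558 in SOX2-OFF and 11885 in CEpiLC. At Gata3-202, a start shared with the non-coding gene 9230102O04Rik, it ranked 16882, 10522 and 10331. SOX2-ON and SOX2-OFF thus had their stronger peak at Gata3-201 and CEpiLC at Gata3-202, where SOX2-ON stood lowest.

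Across the Gata3 window, CEpiLC and SOX2-OFF had more peaks and more covered length than SOX2-ON. The whole lists covered 102, 124 and 93.7 Mb, and chromosome 2 held 8547, 8558 and 9696 peaks. The window held 13 peaks covering 7.57 kb in SOX2-ON, with 15 covering 12.9 kb in SOX2-OFF and 21 covering 13.9 kb in CEpiLC. A region 5.23 kb upstream, at chr2:9895265-9897459, carried 178 bp of peak in SOX2-ON at percentile 38.9, 2195 bp in SOX2-OFF at 71.5 and 2080 bp in CEpiLC at 77.1. An intronic region at chr2:9871029-9872912, within 1 kb of the start of Gata3-205, carried 258, 815 and 1789 bp. The strongest peak of each list in it was at percentiles 9.86, 38.6 and 69. These peaks lay at different places in SOX2-ON, at chr2:9872655-9872912, and SOX2-OFF, at chr2:9871129-9871686. Across the 11 regions shared by SOX2-ON and SOX2-OFF, the median percentile of SOX2-ON minus SOX2-OFF was -16.7 points, with 9 of 11 lower. The median over all shared regions of the genome was -1.6.

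The only strong peak of the 6 windows missing from both lists of the engineered line was the CEpiLC peak printed above, 46 kb upstream of Gata3 within the body of Taf3, which encodes a subunit of the general factor TFIID. It was 170 bp wide, far under the list's median of 526 bp, and ranked 12625, with a fold enrichment of 2.99 and a −log10 p of 18. The highest peak away from starts in this window was at percentile 61.1 in SOX2-ON and 71.5 in SOX2-OFF.

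Gata4 lies on the minus strand at chr14:63198922-63271692 and has the longest body of the family. Its start peak, at Gata4-201, ranked 14198 in SOX2-ON against 16075 in SOX2-OFF and 17446 in CEpiLC, and was 1836, 3450 and 3699 bp wide. So the peak was narrowest where its rank was best. The width in SOX2-ON was 0.532 times that in SOX2-OFF and 0.496 times that in CEpiLC, and 4.7% and 2.38% of coding genes had lower ratios.

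Inside the gene, 1 strong intronic peak ranked alike in the samples and 2 did not. The region at chr14:63255507-63256731, 10.2 kb upstream of the start of Gata4-201 and inside the longer transcripts, was at percentiles 93.7, 93.4 and 93.1. The region at chr14:63264457-63265511 ranked 15110 in SOX2-ON, with 51040 in SOX2-OFF and 52812 in CEpiLC, or 88.4, 61.2 and 59.5 as percentiles. The region at chr14:63231075-63231726 ranked 18350 in SOX2-ON and 50482 in SOX2-OFF, where its peak was 305 bp long against 652, and had no peak in CEpiLC. A region at chr14:63267734-63269787 ran the other way, with no peak in SOX2-ON, percentile 29.5 in SOX2-OFF and 75.2 in CEpiLC. A coding exon at chr14:63239412-63241138 was at 82.5, 81 and 87.9, so it was strong in CEpiLC and close to that limit in the others. The neighbours Fdft1, an enzyme of sterol synthesis, and Neil2, a DNA repair enzyme, had start peaks in all lists, at 99.3, 98.9 and 99.2 and at 93.4, 93.9 and 96.5.

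Gata5 lies on the minus strand at chr2:180325133-180334699, with a single annotated start and the antisense gene Gata5os beside it. Its start peak ranked 16276 in SOX2-ON against 11975 in SOX2-OFF and 12147 in CEpiLC and was 1392, 1577 and 1350 bp wide, so SOX2-ON was lowest in rank and the widths were alike. No strong peak of the window was missing from another list. The strongest peaks away from starts lay 48.7 kb downstream, at percentiles 92, 90.7 and 91.4, and 12 kb upstream, at 81.9, 77.5 and 82. A region 4.63 kb downstream was in CEpiLC alone, at 77.1. The remaining regions away from starts were weaker.

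Gata6 lies on the plus strand at chr18:11052064-11085635, beside the non-coding gene 1010001N08Rik, which runs the opposite way. Its start peak ranked 8168 in SOX2-ON, with 17852 in SOX2-OFF and 17209 in CEpiLC, or 93.7, 86.4 and 86.8 as percentiles. SOX2-ON stood 7.3 points above SOX2-OFF and 6.9 above CEpiLC, differences larger than those of 98.1% and 96.2% of coding genes. The widths were 2754, 3638 and 3232 bp, so the stronger peak was again the narrowest. In every list this peak also lay within 1 kb of a start of 1010001N08Rik. At the start of Gata6-205, inside the gene, SOX2-ON stood lowest, at percentiles 57.9, 69.6 and 78.

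Upstream of Gata6, within the body of 1010001N08Rik, SOX2-ON had 2 strong peaks where neither other list had any. The peak 47.1 kb upstream, at chr18:11003940-11004926, ranked 7658, with a fold enrichment of 4.14 and a −log10 p of 118, and was the highest-ranked peak of the window. The peak 45.1 kb upstream, at chr18:11006014-11006928, ranked 14562, with 2.79 and 45.1. The central 200 bp of the more distal peak held 1 GATA and 1 SOX match, and that of the other 1 TCF/LEF match. A region 11.2 kb upstream was in all lists, at percentiles 88.5, 81.6 and 83, and was highest in SOX2-ON. A region 2624 bp upstream had no peak in SOX2-ON and was at 21.3 in SOX2-OFF and 53.2 in CEpiLC.

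**Figure D4:**
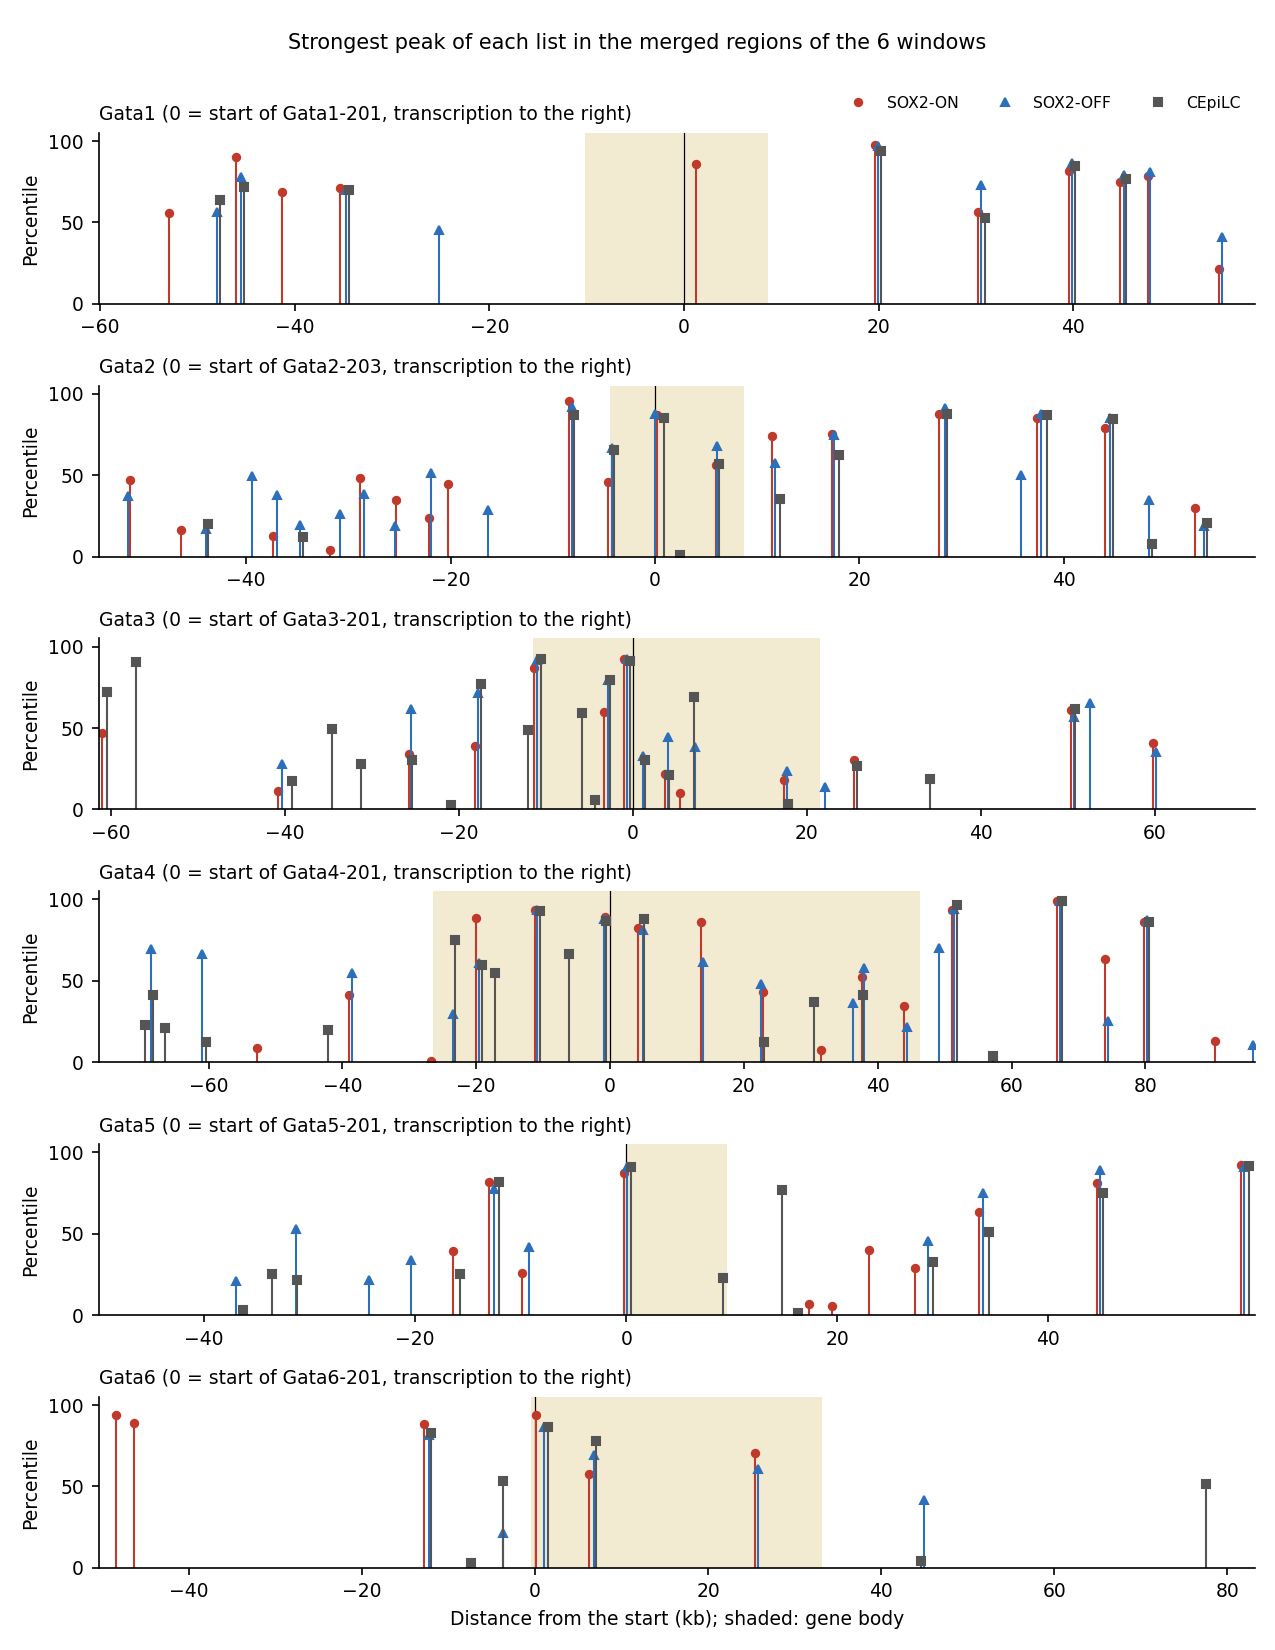
Rank percentile (vertical axis, 100 the strongest) of the strongest peak of each list in every merged region, against distance from the named start in kb, 1 panel for each gene with the gene body shaded. Marks of the lists are set 0.35 kb apart so that they can be seen, and those for SOX2-ON stand alone at the Gata1 intron and at the far upstream end of the Gata6 window.

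Motif matches were counted in the central 200 bp of the window peaks and of all peaks, and every share here is for that stretch. A GATA match lay in 24 of 78 window peaks in SOX2-ON (30.8%, beside 26.6% of all peaks), 28 of 83 in SOX2-OFF (33.7%, beside 26.1%) and 19 of 82 in CEpiLC (23.2%, the share of all peaks). At least 2 matches were held by 10, 8 and 1 window peaks, or 12.8%, 9.64% and 1.22%, beside 5.86%, 4.8% and 3.84% of all. The centre of a region moves with the edges of the peak in each list. The Gata6 start peak held 3, 0 and 0 GATA matches in its centre and 8, 7 and 7 over its whole length. SOX matches (ACAATGG or ACAAAGG) were in 7, 6 and 8 window peaks, or 8.97%, 7.23% and 9.76%, beside 9.98%, 7.5% and 7.2%. TCF/LEF matches (ATCAAAG or TTCAAAG) were in 5, 5 and 4, or 6.41%, 6.02% and 4.88%, beside 7.33%, 7.56% and 7.02%. CDX/HOX matches (TTTATGG or TTTATTG) were in 2, 3 and 1, beside 4.65%, 4.9% and 4.7% of all peaks. T-box matches (AGGTGTGA or AGGTGTTA) were in 0, 2 and 0, beside 1.32%, 1.63% and 1.54%, and FOXH1 matches (TGTGGATT or TGTGTATT) in 0, 0 and 1, beside 1.58%, 1.61% and 1.41%. The POU octamer (ATTTGCAT) was in the centre of no window peak, beside 1.45%, 1.35% and 1.09%, and among strong window peaks it lay outside the centre of 1 Gata1 window peak of SOX2-ON and 1 Gata2 window peak of SOX2-OFF.

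Genes that work with the GATA factors mostly had start peaks in every sample. The 5 partners (Zfpm1, Zfpm2, Lmo2, Tal1 and Ldb1), the 4 heart factors (Nkx2-5, Tbx5, Hand2 and Mef2c), the 4 blood factors (Runx1, Klf1, Gfi1b and Spi1) and the 3 trophoblast factors (Tfap2c, Elf5 and Eomes) had one in all lists. The lowest of these were Spi1, at percentiles 46.6, 51.2 and 51.5, and Gfi1b, at 64.3, 65.1 and 66.4. Among endoderm factors, Sox17, Foxa2 and Sox7 had one in all lists. Hnf4a, a factor of visceral endoderm and liver, had a weak one in SOX2-ON at percentile 24.2 and none in SOX2-OFF or CEpiLC. A start peak marks an open promoter and is not a measure of transcription.

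Markers of cell types that the cultures could hold were read the same way, over the whole of each list. Of all coding genes, 74.9%, 75.8% and 76.3% had a start peak, at median percentiles of 93.8, 93.8 and 93.4. Every marker median given here was below these medians. All 7 caudal epiblast genes (T, Cdx1, Cdx2, Cdx4, Nkx1-2, Fgf8 and Wnt3a) and all 6 pluripotency genes (Pou5f1, Nanog, Klf4, Zfp42, Esrrb and Tfcp2l1) had start peaks in every list. The median percentile of the caudal epiblast genes was 83.7, 85.7 and 86.4, and that of the pluripotency genes was 93.7, 91.3 and 88.4. Among the caudal epiblast genes, T, Cdx1, Cdx2, Nkx1-2 and Cdx4, at 55.3, 81.2 and 74.9, were lowest in SOX2-ON. Wnt3a, at 88.2, 84.8 and 85.5, was highest there, and Fgf8, at 85.7, 85.7 and 81.2, was lowest in CEpiLC. Primitive endoderm genes had them at 7 of 8 in every list, with median percentiles of 91.6 in SOX2-ON against 91.6 in SOX2-OFF and 90.4 in CEpiLC, and Foxq1 had none in any list. Of the 8 fibroblast genes, 4 had one in SOX2-ON, with 5 in SOX2-OFF and 5 in CEpiLC, at medians of 88.3, 91.6 and 90.6. Col3a1, Postn and Lum, which encode matrix proteins of fibroblasts, had none in any list, and Dcn had one at percentile 80.3 in SOX2-OFF and 79.8 in CEpiLC and none in SOX2-ON. The 4 trophoblast genes (Elf5, Tfap2c, Krt8 and Krt18) and the 5 genes of blood and endothelium (Kdr, Pecam1, Cdh5, Tal1 and Runx1) had start peaks in every list, at medians of 82.8, 85.3 and 85.6 and of 84.3, 86 and 88.2. Those of the endothelial genes Pecam1, at 26.5, 52.9 and 64.9, and Cdh5, at 19.4, 9.16 and 39.1, were weak. The rest of that list was higher, with Kdr at 94.8, 95 and 94.5, Runx1 at 91.2, 92.7 and 91.6 and Tal1 at 84.3, 86 and 88.2. The part of any other cell type in the Gata peaks was not tested. Fewer open cells and weaker opening per cell cannot be told apart in such bulk samples.

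The coding genes whose start percentiles came closest to a member's over the 3 samples, outside chromosomes 6, 8 and 11, were Tmem191c and Trib3 for Gata3, within 0.0928 and 0.183 points, and Surf1 and Surf2 for Gata5, both within 0.203 points. Shisa8 and Tgfb1i1 came closest to Gata2, within 0.361 and 0.433 points, and Cpne5 and Fgfr3 to Gata4, within 0.473 and 0.623 points. The closest to Gata6 were Igfbp2 and Gadd45g, within 1.1 and 1.29 points. Gata6 thus had the most distant nearest genes of the 5, and likeness over 3 values carries no statement of shared control.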

How the data were processed

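Accessible chromatin was measured by ATAC-seq in 3 samples, 1 in each of SOX2-ON, SOX2-OFF and CEpiLC, assigned by genotype and doxycycline as labelled. Library PCR ran for no more than 12 cycles. In the nf-core/atacseq pipeline the authors used Trim Galore, BWA on mm10, a filter against mitochondrial reads, and MACS2 for broad peaks. The handling of transposase offsets is not given in the sources used here. For each peak the authors deposited a fold enrichment (a ratio of pileup to local background), a −log10 p and a −log10 q, and a score that was not used. All lists ended at a −log10 q of about 1, and no read totals were used, so depth is unknown. Broad calling joins neighbouring sites, so edges and widths are approximate.

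Peaks were ranked within each list by −log10 p in Python 3.11.15. Overlaps were checked with bedtools 2.31.1, and the code was tested on simulated intervals. Genes and starts came from GENCODE M21, and sequences from GRCm38 and RefSeq. Motifs were exact strings on either strand. Wilson intervals (95%) cover counting error only. With 1 sample in each group, no test was made. The genes, lists, thresholds and motifs were chosen with earlier results of these data known. By rule, the text names all 6 genes, each strong window peak that another list lacked, the start peaks, peaks among the strongest over 1 kb from a start, the 2 coding genes most like each member, and listed genes without a start peak. Values of listed genes that had a start peak in every list, such as Cdx4 and Pecam1, are given outside that rule. Alternatives varied the window, the q limit, the overlap, the strength limit, the ranking, the width measure and the chromosomes. A gene of the endoderm list is not reported here.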

Additional observations from a re-analysis of the deposited data

How the results depend on the processing

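No paired analysis was possible because there was a single sample in each group, and no replicate could be left out. Of 257 recomputed values, 169 stayed within 1.5 times the reported count or width, or within 10 percentile points of it, and 88 moved further. They were recomputed for the Gata windows and genes only, so the counts below have no share over the whole lists beside them. With windows of 10 kb on either side, peaks numbered 33, 34 and 40 in SOX2-ON, SOX2-OFF and CEpiLC (the order used throughout), 23 regions were in all lists, and 4, 3 and 12 were in a single list. With 100 kb, SOX2-ON had 130 peaks and SOX2-OFF 128, 68 regions were in all lists, and 30 and 21 were in SOX2-ON or SOX2-OFF alone. Within gene bodies the peaks were 25, 25 and 28, regions in all lists 18, and regions in a single list 3, 1 and 7. These follow from the window's size.

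The q limit moved the values most. At a −log10 q of at least 2, CEpiLC kept 48 peaks and 10 regions of its own, and its rank was above that of SOX2-OFF at 1 region. Peaks were then at least 2 times as long at 5 regions for SOX2-OFF over SOX2-ON, 2 for SOX2-ON over CEpiLC, 4 for CEpiLC over SOX2-ON, 2 for SOX2-OFF over CEpiLC and 1 for CEpiLC over SOX2-OFF. At 5, peaks numbered 36, 36 and 23, regions in all lists 20, and regions in a single list 9, 7 and 1. CEpiLC thus went from the most single-list regions, 24 against 15 and 13, to the fewest. Then 5 strong SOX2-ON peaks had no counterpart in SOX2-OFF, and 1 strong SOX2-OFF peak had none in CEpiLC. Rank shifts became 1 for SOX2-ON above SOX2-OFF and 0 for the reverse, 6 for SOX2-ON above CEpiLC and 0 for the reverse, and 0 for CEpiLC above SOX2-OFF. Length calls became 0 for SOX2-ON over SOX2-OFF and 1 for the reverse, 0 for SOX2-ON over CEpiLC and 1 for the reverse, and 1 for SOX2-OFF over CEpiLC and 0 for the reverse. The cause was not tested.

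With missing set at under 50% covered, 2 strong CEpiLC peaks were missing from SOX2-ON. Among the strongest 5000 peaks, 0 SOX2-ON peaks were missing from SOX2-OFF, 0 from CEpiLC, and 0 CEpiLC peaks from SOX2-ON or SOX2-OFF, since the reported peaks ranked below 5000. Among the strongest 50000, 8 SOX2-ON peaks were missing from CEpiLC, 5 SOX2-OFF peaks from SOX2-ON and 3 from CEpiLC, and 7 CEpiLC peaks from SOX2-ON and 4 from SOX2-OFF. SOX2-OFF ranked above SOX2-ON at 3 regions without chromosomes 6, 8 and 11. CEpiLC ranked above SOX2-ON at 4 regions by fold enrichment and at 5 by rank within the chromosome, where SOX2-ON ranked above SOX2-OFF at 5. Ranked by fold enrichment, the Gata2 start peak fell to percentiles 74.2, 68.4 and 72.2. Among peaks within 1 kb of any start, the median start percentile of the members was 58.5, 54.8 and 53.6, against 89.1, 87.8 and 86.8 among all peaks. The median start width in CEpiLC was 3699 bp when all peaks near a start were summed, against 1547 bp. With depth unknown, a weak peak that is missing from a list cannot be told apart from one that was not detected.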
